A study of Homo sapiens with 8 samples.

Results

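The data described here are the control arrays of a gene expression experiment on silencing of SFPQ, an RNA- and DNA-binding protein of the nucleus. They are the 4 control arrays among 8 single-colour Agilent arrays, chosen by their labels: control 1 and control 2 of MDAH cells and control 1 and control 2 of SKOV3 cells, with 1 array for each control in each line. MDAH and SKOV3 are human epithelial ovarian cancer lines. The labels name all 4 samples as control shRNA, whereas by the methods 1 control of a line is the parental culture and the other carries sh-ctrl. No source says which array is which, nor how long after transduction the RNA was taken, so the samples are called control 1 and control 2 here, and the question is which genes differ between them the same way in both lines and whether genes of a transduction response are among these. The other 4 arrays held cells with sh-SFPQ#2 or sh-SFPQ#3, delivered by the same lentiviral vector (pLKO) that carries the control shRNA. Their levels are given beside those of the controls. They also enter the limma fit, so its standard errors and p-values rest partly on them. No source says whether any condition was cultured or transduced more than once, or how many cells, clones or pools a sample holds. By the labels alone, the 2 controls of a line could even come from 1 culture. The p-values therefore measure only the spread between these arrays, which may be technical.

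A lentivirus enters a cell as single-stranded RNA, copies itself into DNA and integrates, and each of these nucleic acids can be seen by sensors such as RIG-I, MDA5, TLR3 and cGAS. The sensors act through IRF3 to switch on interferons and interferon-stimulated genes, which block viral entry, translation and replication, and through NF-kappaB to switch on cytokines and chemokines. Short hairpin RNAs are transcribed from the integrated vector and processed by the RNA interference machinery, and double-stranded RNA of sufficient length can also trigger the interferon response. Ovarian cancer cells are also known for NF-kappaB-driven cytokine secretion of their own.

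Levels are log2 signals after subtraction of the 75th percentile of the array, so that 0 is the 75th percentile, and differences are control 2 minus control 1 on that scale, with MDAH given first unless a line is named. The 75th percentile itself, in linear units, was 496 for control 1 and 483 for control 2 of MDAH and 438 and 387 for those of SKOV3. Control 1 lay in column 1 and control 2 in column 2 of the single slide in both lines, so that slide column and control number cannot be told apart. The net signal of the negative control spots was higher on control 2 in both lines, at 74.0 against 65.6 in MDAH and 70.2 against 59.4 in SKOV3, and its part in the differences was not tested. The lines kept a known feature, since ERBB2, the receptor tyrosine kinase amplified in SKOV3, was at 6.49 and 6.05 in the SKOV3 controls and at 1.90 and 2.33 in those of MDAH. KRT8, KRT18 and KRT19, which are keratins of simple epithelia, and PAX8, the lineage factor of the Muellerian tract, were well above background on all 4, while the other ovarian lineage markers, WT1 and MUC16, were so on 2 and 0 of them. CD3E, MS4A1, CSF1R, LUM and PDGFRA, which mark T cells, B cells, macrophages and fibroblasts, were not well above background on any of the 4 control arrays. Each list of other cell types nevertheless had 1 member well above background on all 4. PTPRC, the pan-leukocyte phosphatase, was at -3.19 to -2.28 (1 of 4 lymphocyte markers), CD14, a monocyte co-receptor, at -2.48 to -0.64 (1 of 3 macrophage markers), CDH5, the endothelial cadherin, at -3.49 to -2.75 (1 of 3) and COL1A1, a fibrillar collagen chain, at -2.76 to -0.57 (1 of 5 fibroblast markers). PTPRC was lower in control 2 in both lines and the others differed in opposite directions between the lines, and their part in the results was not tested.

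No gene passed the test of control 2 against control 1. Of 15483 genes tested with limma, 0 (0%) had an adjusted p under 0.05, 548 had an unadjusted p under 0.05, and the lowest adjusted p was 0.605. The test rests on 1 pair of arrays a line and 2 residual degrees of freedom, 1 of which comes from the silenced arrays. In simulated data of this design 200 genes were altered at once, with variances taken from the fit. A log2 difference of 2 was then recovered in 99% of the altered genes, with 25 unaltered genes called, and a log2 difference of 1 in 0%. Recovery after adjustment depends on how many genes are altered, so the 99% does not show that a few genes of that size would be called. CSF2, with a mean difference of 2.06, was not called. A line-by-number interaction was called for 0 genes, with 461 at an unadjusted p under 0.05, so that values below that differ between the lines are given as values only. In the same model the shRNA term, sh-SFPQ#3 minus sh-SFPQ#2, was called for 111 genes.

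The genes are therefore described by the values of the 2 lines. The description covers the 12993 genes well above background on all 4 control arrays. Their median difference was 0.05 in MDAH and 0.01 in SKOV3, with an SD over genes of 0.26 and 0.30. The differences of the lines correlated at r = 0.142 and rho = 0.152 across these genes, which share arrays and are not independent replicates. In both lines, 24 genes (0.185%) were higher in control 2 by over 1.5-fold and 25 (0.192%) were lower, against 11 (0.0847%) past 1.5-fold with opposite signs. In single lines 263 (2.02%) were higher and 175 (1.35%) lower by over 1.5-fold in MDAH, and 375 (2.89%) were higher and 312 (2.4%) lower in SKOV3. Between the 2 shRNAs against SFPQ, over 12647 genes well above background on all 4 silenced arrays, 234 were higher and 442 lower past 1.5-fold in both lines, with 62 of opposite sign and r = 0.479, so that the 2 silenced arrays of a line lay further apart than its controls. That difference between the pairs was not tested.

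**Figure D1:**
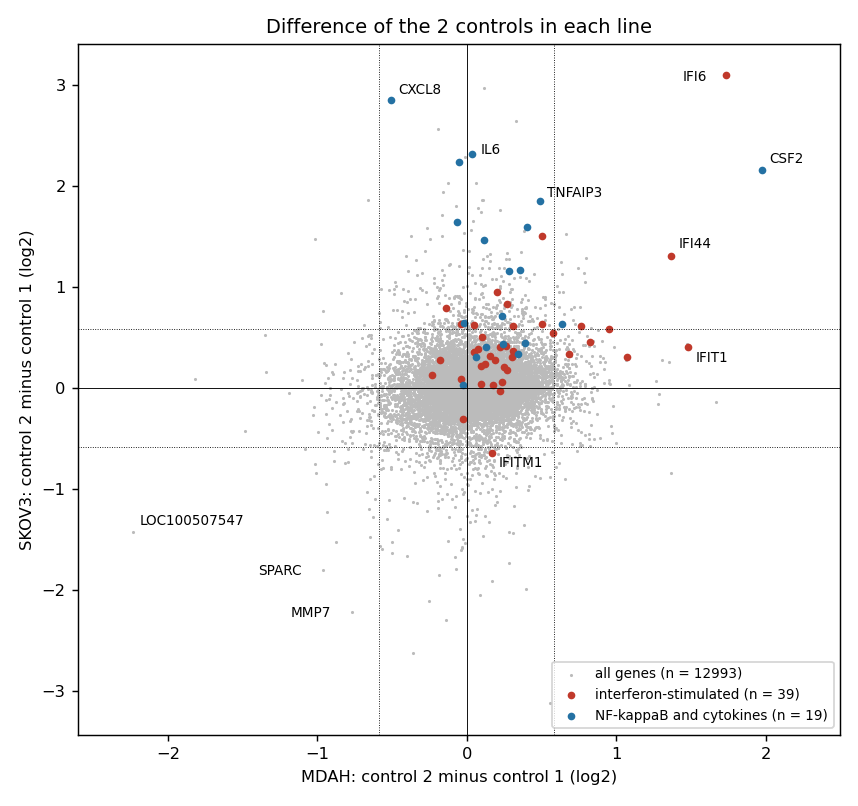
Difference of control 2 and control 1 on the log2 scale in MDAH (horizontal) and SKOV3 (vertical) for the 12993 genes well above background on all 4 control arrays, with interferon-stimulated genes in red and NF-kappaB and cytokine genes in blue. Dotted lines mark 1.5-fold; CSF2, IFI6 and IFI44 stand in the upper right, and CXCL8 and IL6 are high on the SKOV3 axis alone.

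The gene with the lowest p was CSF2, which encodes the granulocyte-macrophage growth factor GM-CSF and is a target of NF-kappaB. Its level was -1.91 on control 1 and 0.07 on control 2 of MDAH, and -2.54 and -0.39 on those of SKOV3, so that control 2 was above control 1 by 3.93-fold and 4.45-fold, and both control 2 levels lay above both control 1 levels. The mean difference was 2.06 ± 0.14 (SE, limma adjusted p = 0.605). Among genes well above background on all 4 control arrays, ranked by the smaller difference of the 2 lines, CSF2 was also first and IFI6, an interferon-induced mitochondrial protein, was second. Its level was 2.64 on control 1 and 4.38 on control 2 of MDAH and 0.59 and 3.69 on those of SKOV3, which is 3.32-fold and 8.54-fold, again with both control 2 arrays above both control 1 arrays (mean difference 2.41 ± 0.61, limma adjusted p = 0.981). IFI44, another interferon-induced gene, was at -3.05 and -1.69 in MDAH and at -0.51 and 0.80 in SKOV3, so that control 2 of MDAH lay below control 1 of SKOV3 while control 2 was the higher one within each line, by 1.37 and 1.31 (limma adjusted p = 0.981).

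The rest of the 12 highest genes had differences of 0.66 to 0.80 in MDAH and 0.67 to 1.53 in SKOV3. IL4I1, a secreted amino acid oxidase of immune regulation, differed by 0.80 and 1.29. The gene PLAU, for the urokinase-type plasminogen activator, was at 6.25 and 7.01 in MDAH and at 6.07 and 6.87 in SKOV3, with control 2 above control 1 in each line and by nearly the same amount, and its 2 probes gave 0.76 to 0.78 and 0.80. HBEGF, a membrane-bound ligand of the EGF receptor, differed by 0.72 and 0.80. The telomerase reverse transcriptase gene TERT was at 0.11 and 0.78 in MDAH and at -1.28 and 0.25 in SKOV3. ACOX2, a peroxisomal oxidase of bile acid synthesis, and KRT15, a keratin of stratified epithelia, were higher by 0.79 and 1.05 and by 0.78 and 1.14. ANK1 (ankyrin, 0.75 and 1.19), the ETS factor SPIB (0.70 and 0.78) and the LIM protein LMO2 (0.71 and 0.67) completed the group. In MDAH, ANK1 (-3.96 and -3.21), ACOX2 (-3.81 and -3.02) and SPIB (-3.60 and -2.90) were dim. The dimmest probes well above background on its controls were at -4.87 and -4.89. Among the other 12 genes past 1.5-fold were TNF, NFKBIZ (an atypical inhibitor of NF-kappaB, 0.62 and 0.94), ISG15, KLF6 and HMOX1, the haem oxygenase (0.60 and 1.01). KRT8 was just inside the 1.5-fold limit at 0.83 and 0.59, and ZNF827 just outside it at 0.61 and 0.58.

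**Figure D2:**
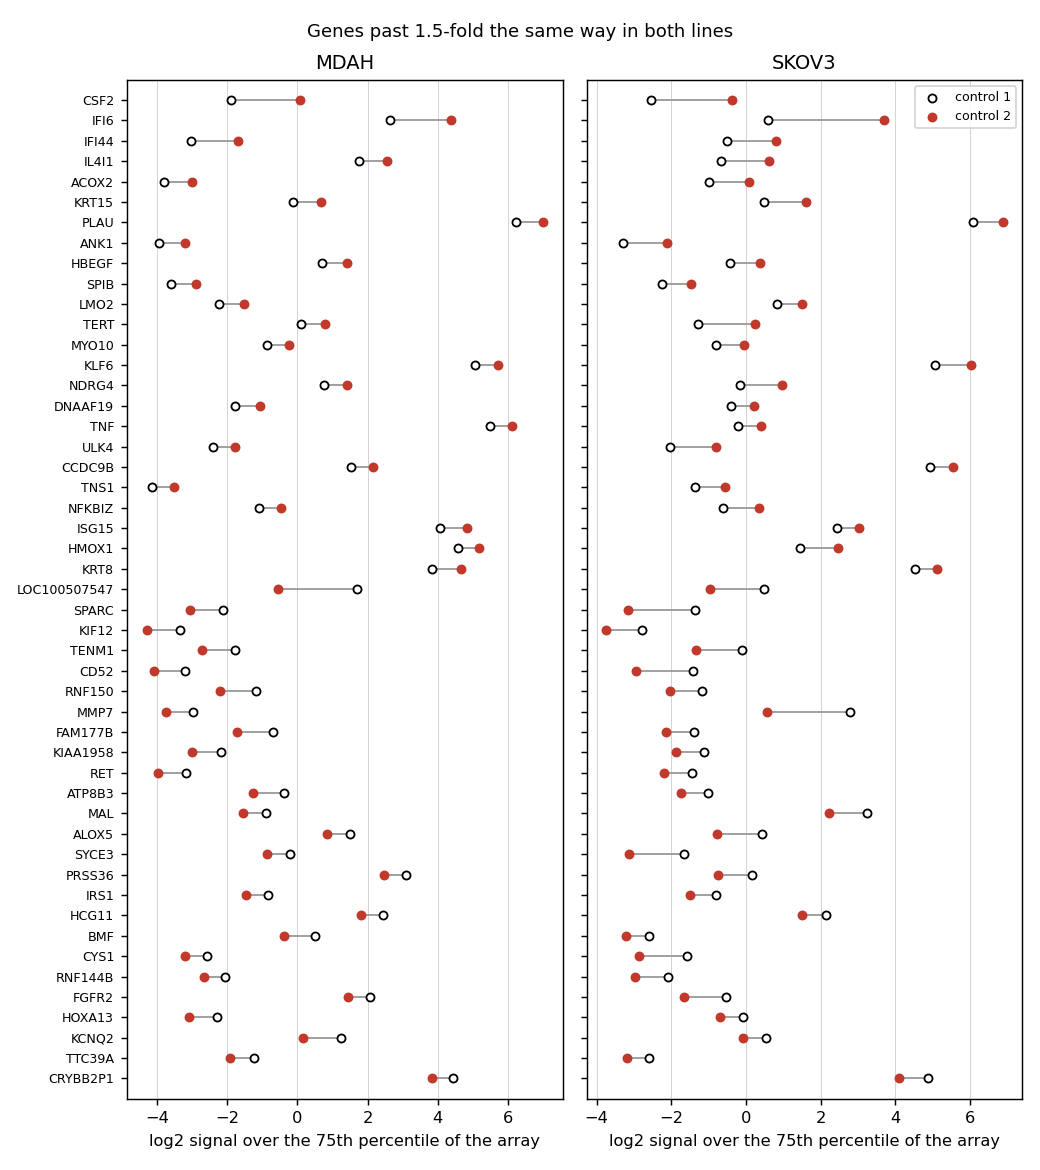
Levels (log2 signal over the 75th percentile) of the 49 genes past 1.5-fold the same way in both lines, MDAH left and SKOV3 right, with control 1 as open and control 2 as filled points joined by a line. Control 2 lies right of control 1 for the upper 24 genes and left of it for the lower 25, as the choice of genes fixes; the length of the lines differs most for IFI6 and MMP7.

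The genes lower in control 2 included matrix, surface and signalling proteins. First in the ranking was LOC100507547, a long non-coding RNA, at 1.69 and -0.54 in MDAH and 0.47 and -0.96 in SKOV3, so that both control 1 arrays were above both control 2 arrays (mean -1.83 ± 0.23, limma adjusted p = 0.981). Not all of its 3 probes followed, since their differences spanned -2.24 to 0.19 in MDAH and -1.43 to 0.42 in SKOV3. SPARC, a collagen-binding matrix protein, was at -2.12 and -3.08 in MDAH and at -1.37 and -3.17 in SKOV3. MMP7, the matrilysin protease, differed by -0.77 in MDAH, where it was dim, and by -2.22 in SKOV3, where it was at 2.77 and 0.55. For MAL, a raft protein of apical sorting, the values were -0.67 and -1.03. CD52, a small surface glycoprotein, differed by -0.87 and -1.53, and the receptor tyrosine kinase RET by -0.80 and -0.74. The kinesin KIF12 (-0.94 and -0.96), the teneurin TENM1 (-0.93 and -1.23), the ring finger protein RNF150 (-1.01 and -0.84), the phospholipid flippase ATP8B3 (-0.89 and -0.73), FAM177B (-1.02 and -0.76) and KIAA1958 (-0.81 and -0.74) made up the rest of the 12 lowest. KIF12 (-3.36 and -4.30), CD52 (-3.21 and -4.08) and RET (-3.19 and -3.99) were also dim on the MDAH controls. None of the 25 genes was in any of the 17 gene lists described next. The limit was at CRYBB2P1 inside (-0.60 and -0.75) and NBEAP1 outside (-0.58 and -1.57).

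Interferon-stimulated genes were mostly higher in control 2 in both lines. Of 52 genes on the list, 51 were named on the array and 39 were well above background on all 4 control arrays. Of these 39, 31 were higher in control 2 in both lines and 1, LAMP3, was lower in both, while over all genes 34.4% were higher and 22.1% lower in both. In MDAH alone 33 of 39 were higher (58.9% of all genes) and in SKOV3 alone 36 (53.5%). The median difference of the list was 0.22 in MDAH and 0.37 in SKOV3, against 0.05 and 0.01 over all genes. None passed the test after adjustment, and 14 of the 39 had an unadjusted limma p under 0.05. Over all 15483 genes tested, a wider set that includes dimmer genes, 548 did. In bulk RNA, fewer responding cells and less RNA per cell cannot be told apart.

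The size differed between members and lines. In MDAH the IFIT genes, which bind viral RNA lacking a normal cap, were among the most different: IFIT1 was at 0.48 and 1.96, IFIT2 at -0.30 and 0.77 and IFIT3 at -1.78 and -0.84. The same genes differed less in SKOV3, by 0.40, 0.30 and 0.58. In SKOV3 the antiviral GTPase MX1 was at -1.15 on control 1 and 0.36 on control 2, and in MDAH it was at 2.72 and 3.23. ISG15, the ubiquitin-like modifier, was at 4.07 and 4.83 in MDAH and at 2.43 and 3.03 in SKOV3 (mean difference 0.68 ± 0.23, limma adjusted p = 0.981). IFITM1, which blocks viral fusion, was higher in MDAH by 0.17 and lower in SKOV3 by 0.64. The 12 other named members were not well above background on all 4 control arrays. Among those, OASL and OAS1, of the oligoadenylate synthetase family, were above background on 3 of the 4. OASL was at -0.32 and 0.99 in MDAH and at -4.50 and -3.01 in SKOV3, and OAS1 differed by 1.18 and 2.59. OAS2 was lower by 1.17 in MDAH, where it was near background, and higher by 1.67 in SKOV3.

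**Figure D3:**
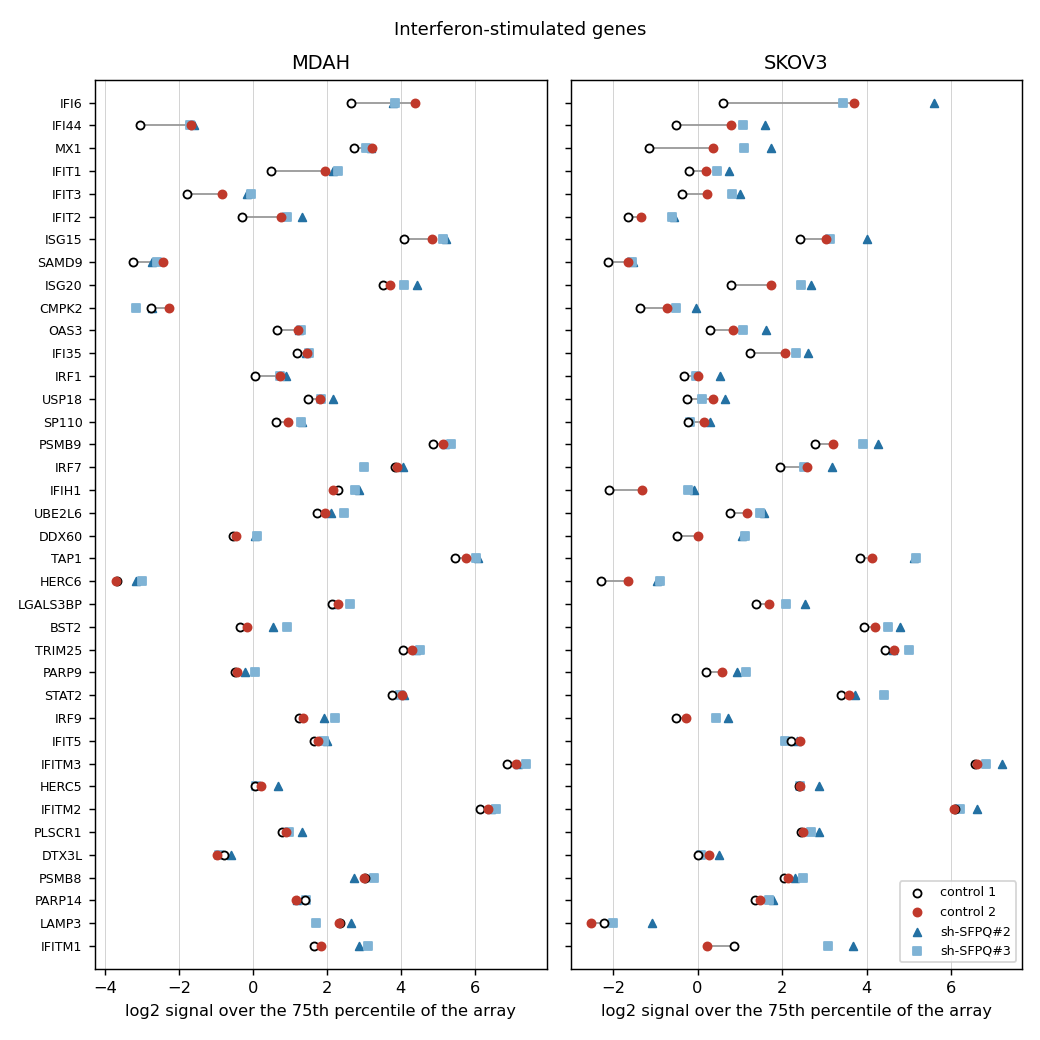
Levels (log2 signal over the 75th percentile) of 38 of the 39 interferon-stimulated genes well above background on all 4 control arrays, MDAH left and SKOV3 right, ordered by the summed difference of the controls, with both controls and both shRNAs against SFPQ. In 30 of the 38 genes control 2 lies right of control 1 in both lines, and IFITM1 is the lowest in the order.

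The silenced arrays were set beside these levels without a test, and since they are read against the same control 1 they are not independent of the values above. Against control 1, the median of the 39 genes was 0.22 for control 2, 0.53 for sh-SFPQ#2 and 0.52 for sh-SFPQ#3 in MDAH, and 0.37, 1.1 and 0.71 in SKOV3. Over all genes the same medians were 0.05, 0.13 and 0.16 in MDAH and 0.01, -0.02 and -0.06 in SKOV3. For IFI6 in MDAH the silenced arrays, at 3.78 and 3.84, lay below control 2 at 4.38 and above control 1 at 2.64. In SKOV3 the level with sh-SFPQ#2 was 5.60, above control 2 at 3.69, and that with sh-SFPQ#3 was 3.44. In both lines control 1 thus had the lowest level of the 4 arrays for this gene. IFITM1 showed another order, with the SKOV3 controls at 0.87 and 0.22 and the silenced arrays at 3.68 and 3.09.

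The promoters of the named members are shown because they hold the element that interferon-activated factors bind. The sequences are RefSeq's (GRCh38.p14), read 5' to 3' on the strand of the gene and ending at the base before the start site. Capitals mark GAAANNGAA, the core of the interferon-stimulated response element, on either strand, and for the last pair, CSF2 and TNFAIP3, GGNNNTTCC, a kappaB-like motif, on either strand.
IFI6, chr1:27672193-27672368, minus strand: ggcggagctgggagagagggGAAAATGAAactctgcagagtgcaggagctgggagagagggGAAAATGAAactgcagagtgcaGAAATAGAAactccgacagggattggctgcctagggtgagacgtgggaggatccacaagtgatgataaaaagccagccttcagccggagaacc
IFI44, chr1:78649689-78649788, plus strand: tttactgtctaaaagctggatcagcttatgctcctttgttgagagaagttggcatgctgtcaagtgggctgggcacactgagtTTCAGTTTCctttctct
ISG15, chr1:1013364-1013496, plus strand: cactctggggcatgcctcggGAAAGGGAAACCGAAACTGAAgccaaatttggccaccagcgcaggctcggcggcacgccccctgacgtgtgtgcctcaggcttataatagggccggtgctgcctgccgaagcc
CSF2, chr5:132073667-132073788, plus strand: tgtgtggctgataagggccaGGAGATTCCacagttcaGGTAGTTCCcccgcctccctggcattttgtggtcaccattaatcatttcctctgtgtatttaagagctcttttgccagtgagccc
TNFAIP3, chr6:137867159-137867258, plus strand: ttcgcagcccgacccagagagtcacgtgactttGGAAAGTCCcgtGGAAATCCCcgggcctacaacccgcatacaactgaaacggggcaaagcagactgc
GAAANNGAA occurred within 250 bases before the start in 7.06% of all 27305 promoters, and GGNNNTTCC in 17.1%. Among the genes well above background on all 4 control arrays, from which the groups below were drawn, 10280 had a promoter entry and the shares were 5.26% and 19.8%. Both motifs were searched on both strands, and neither excludes an overlap with the other. Of the 39 interferon-stimulated genes, 33 had a promoter entry, and 19 of them (57.6%) held GAAANNGAA. The list was made of genes known to respond to interferon, so that this share describes the list and not these arrays. The 18 matched genes among the 24 higher ones held GAAANNGAA in 4 cases (22.2%), and the 21 matched among the 25 lower ones in 1 (4.76%). The 4 were NFKBIZ and IFI6, IFI44 and ISG15, which are on the interferon list, so the 22.2% is not separate from the share of that list. GGNNNTTCC was found in 6 (33.3%) of the 18, which were CSF2, IL4I1, HBEGF, TNS1, NFKBIZ and ISG15, and in 2 (9.52%) of the 21. These are counts of letters in a window and not of bound sites.

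Genes of the sensing step had smaller differences than the interferon-stimulated genes at the median. The list of nucleic acid sensors and restriction factors had 15 of 23 genes above background on all 4 arrays, with medians of 0.04 and 0.16. Of these 15, 7 were higher (34.4% of all genes) and 1 lower (22.1%) in both lines. With the mean of a gene's probes the medians were 0.19 and 0.30, with 9 higher and 0 lower in both, and with genes above background on at least 2 control arrays the SKOV3 median was 0.30. MAVS, the mitochondrial adaptor of RIG-I and MDA5, was at 2.14 and 2.58 in MDAH and 4.41 and 4.68 in SKOV3, but its 7 probes spanned differences of 0.06 to 0.44 and of -0.30 to 0.28. STING1, the adaptor of cGAS, differed by 0.19 and 0.50, and APOBEC3F, a cytidine deaminase that restricts retroviruses, by 0.98 and 0.40 at its brightest probe, while another of its probes gave -0.16 in MDAH. IFIH1, which encodes MDA5, was lower in MDAH by 0.14 and higher in SKOV3 by 0.79. All 13 genes of the RNA interference machinery were above background, with medians of 0.16 and -0.06. In both lines 2 were higher (34.4% of all genes) and 2 lower (22.1%). The differences of PRKRA and TARBP2, the double-stranded RNA-binding partners of Dicer, were -0.32 and -0.15 and 0.31 and 0.08, and those of TNRC6A, the effector that Argonaute recruits, -0.30 and -0.14.

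NF-kappaB targets and inflammatory cytokines were higher in control 2 chiefly in SKOV3. Of 26 genes, 19 were above background on all 4 arrays. All 19 were higher in control 2 of SKOV3 (53.5% of all genes), 13 of them by over 1.5-fold (2.89% of all genes), with a list median of 1.15. In MDAH 14 were higher (58.9% of all genes), 2 by over 1.5-fold (2.02%), with a median of 0.23. Higher in both lines were 14 (34.4% of all genes), and none was lower in both (22.1%).

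The chemokine CXCL8, which draws neutrophils, was at 0.21 on control 1 and 3.07 on control 2 of SKOV3, a 7.24-fold difference, and at 1.63 and 1.12 in MDAH, where the order was the opposite. IL6, the acute-phase cytokine, was at 1.71 and 4.02 in SKOV3 and at 7.23 and 7.26 in MDAH. Its MDAH controls were thus alike and both above the SKOV3 ones. CXCL2, also a neutrophil chemokine, was at 2.66 and 4.90 in SKOV3 and 7.01 and 6.95 in MDAH, and CXCL1 differed by 1.60 in SKOV3 and 0.40 in MDAH. The interleukins IL1A and IL1B were above background in SKOV3 alone, at -0.38 and 2.52 and at 0.17 and 3.26. TNF differed by the same amount in both lines, at 5.48 and 6.12 in MDAH and -0.23 and 0.40 in SKOV3 (mean difference 0.63 ± 0.16, limma adjusted p = 0.981). TNFAIP3, the A20 enzyme that limits NF-kappaB signalling, was at 0.76 and 1.25 in MDAH and at -0.51 and 1.35 in SKOV3. NFKBIA, the classical inhibitor of NF-kappaB, differed by 0.39 and 0.44, while REL, a subunit of the factor, differed by -0.03 and 0.02. On the silenced arrays of SKOV3, IL6 was at 5.06 and 4.87, CXCL8 at 2.21 and 2.09 and CXCL2 at 5.03 and 4.67. Control 1 was the lowest of the 4 SKOV3 arrays for IL6, CXCL8 and CXCL2, but not for CXCL1, at 6.90 on control 1 and 6.67 with sh-SFPQ#3. In MDAH the lowest of the 4 arrays was control 2 for CXCL8, at 1.12, and sh-SFPQ#3 for CXCL2, at 6.46.

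Of the 19 genes, 16 had a promoter entry and 13 (81.25%) held GGNNNTTCC, against 19.8% of the promoters of genes above background on all 4 control arrays. The list was made of genes known as NF-kappaB targets, so that this share describes the list and not these arrays.

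**Figure D4:**
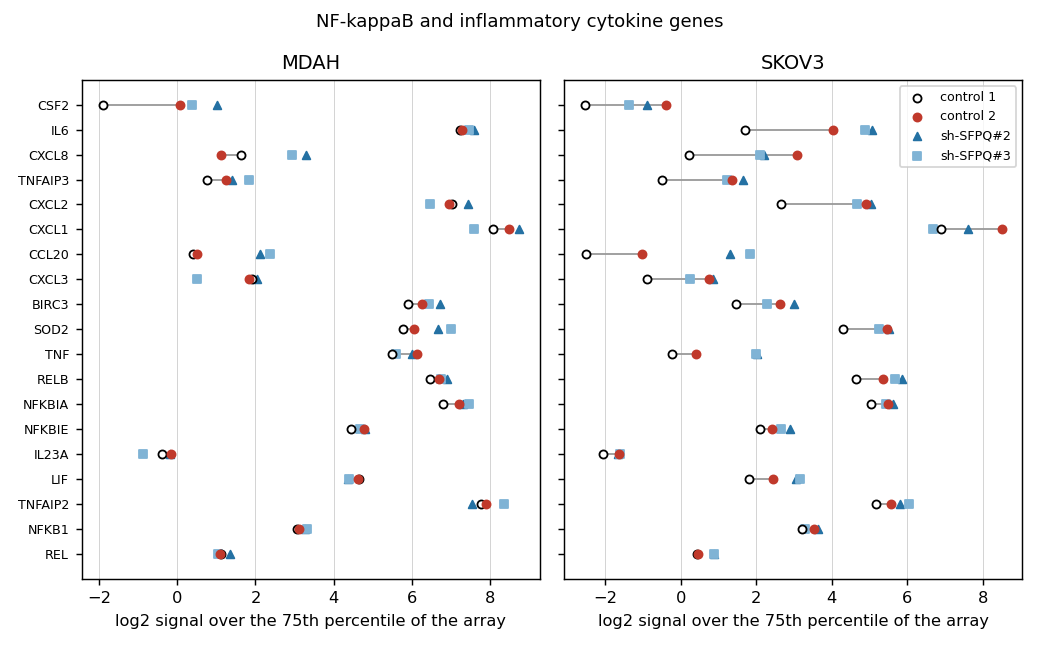
Levels (log2 signal over the 75th percentile) of the 19 NF-kappaB and cytokine genes well above background on all 4 control arrays, MDAH left and SKOV3 right, with both controls and both shRNAs against SFPQ. Control 2 lies right of control 1 for all 19 genes in SKOV3, and for 14 in MDAH, where IL6 is at 7.23 and 7.26.

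Immediate early genes, which growth factors and stress switch on within minutes, had medians of 0.25 and 0.35. Of 30 genes 22 were above background on all 4 arrays. Of these, 16 were higher (34.4% of all genes) and 2 lower (22.1%) in both lines. KLF6, a zinc finger factor, was at 5.08 and 5.72 in MDAH and 5.07 and 6.02 in SKOV3, and its 2 probes gave 0.58 to 0.64 and 0.50 to 0.95. The nuclear receptor NR4A3 (0.78 and 0.42) and the phosphatase DUSP5 (0.39 and 0.52) were also higher in both. FOS went opposite ways, with 0.83 and -0.37. The EGR1 values, -0.26 and -0.37, were lower in control 2 in both.

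Metallothioneins, the small metal-binding proteins that zinc and copper induce, were higher in SKOV3 with a median of 1.18 over 7 of 11 genes, against 0.15 in MDAH. MT1X was at 4.58 and 5.68 in SKOV3 and at 6.31 and 6.54 in MDAH, and MT1B differed by 1.18 in SKOV3 and 0.21 in MDAH. MT3, the form of the nervous system, was lower by 0.16 in MDAH and 0.18 in SKOV3. The MT1 genes are near-identical copies, so that their probes may read each other and the 7 values are not independent.

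The cell cycle and sterol lists had opposite signs in the 2 lines. Among the 46 genes of DNA replication and the G1/S transition, 44 were higher in control 2 of MDAH (58.9% of all genes). In that of SKOV3 17 were higher (53.5% of all genes), and the medians were 0.33 and -0.06. UHRF1, which keeps DNA methylation through replication, was at 2.45 and 3.30 in MDAH and 3.36 and 3.22 in SKOV3, and the helicase subunit MCM5 at 3.48 and 4.22 and at 3.76 and 3.71. ORC1, of the origin recognition complex, GINS4, of the replicative helicase, and the primase PRIM1 were higher in both, by 0.47 and 0.14, by 0.27 and 0.20 and by 0.12 and 0.16. Of the 45 mitosis genes 43 were higher in MDAH (58.9% of all genes) and 13 in SKOV3 (53.5%), with medians of 0.29 and -0.10. CDC20, the activator of the anaphase-promoting complex, was at 3.22 and 4.01 in MDAH and at 4.95 and 4.98 in SKOV3. ESPL1, the separase, PLK1, a mitotic kinase, and FOXM1, a factor that drives mitotic genes, were higher in both lines by 0.44 and 0.21, 0.36 and 0.15, and 0.18 and 0.14. The 52 replication-dependent histone genes above background had medians of -0.01 and -0.05, with H4C5 (-0.12 and -0.15) and H2AC12 (-0.14 and -0.12) lower and H2BC21 (0.16 and 0.12) higher in both.

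For cholesterol synthesis, where SREBP2 switches on a chain of enzymes when sterols are low, all 30 genes were above background. In MDAH 28 were higher in control 2 (58.9% of all genes), 9 of them by over 1.5-fold (2.02%). In SKOV3 26 were lower (46.5% of all genes), 4 of them by over 1.5-fold (2.4%). The medians were 0.43 and -0.32. INSIG1, which holds SREBP in the endoplasmic reticulum and is itself a target of it, was at 3.43 and 4.80 in MDAH and at 1.44 and 0.59 in SKOV3, the only list member past 1.5-fold in both lines with opposite signs. HMGCS1, which makes HMG-CoA, differed by 0.77 and -0.56 and DHCR7, of the last step, by 0.74 and -0.42. The isomerase EBP (0.57 and 0.19) and the dehydrogenase NSDHL (0.61 and 0.10) were higher in both, and the reductase TM7SF2 was lower in both (-0.10 and -0.12).

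The list of the integrated stress and unfolded protein response went the other way, with medians of -0.29 and 0.18. Of 31 genes, 23 were lower in MDAH (41.1% of all genes) and 24 higher in SKOV3 (53.5%). DDIT3, the CHOP factor, was at 2.43 and 1.77 in MDAH and at 0.02 and 0.53 in SKOV3. The cystine transporter SLC7A11 differed by -0.74 and 0.07. HSPA5, the main chaperone of the endoplasmic reticulum, was at 3.35 and 3.07 and at 1.72 and 2.30. The lipoprotein receptor VLDLR (-0.43 and -0.62) and the mTOR inhibitor DDIT4 (-0.35 and -0.84) were lower in both, and the chaperone SDF2L1 (0.35 and 0.37) higher in both. No test compared the lines for any list.

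**Figure D5:**
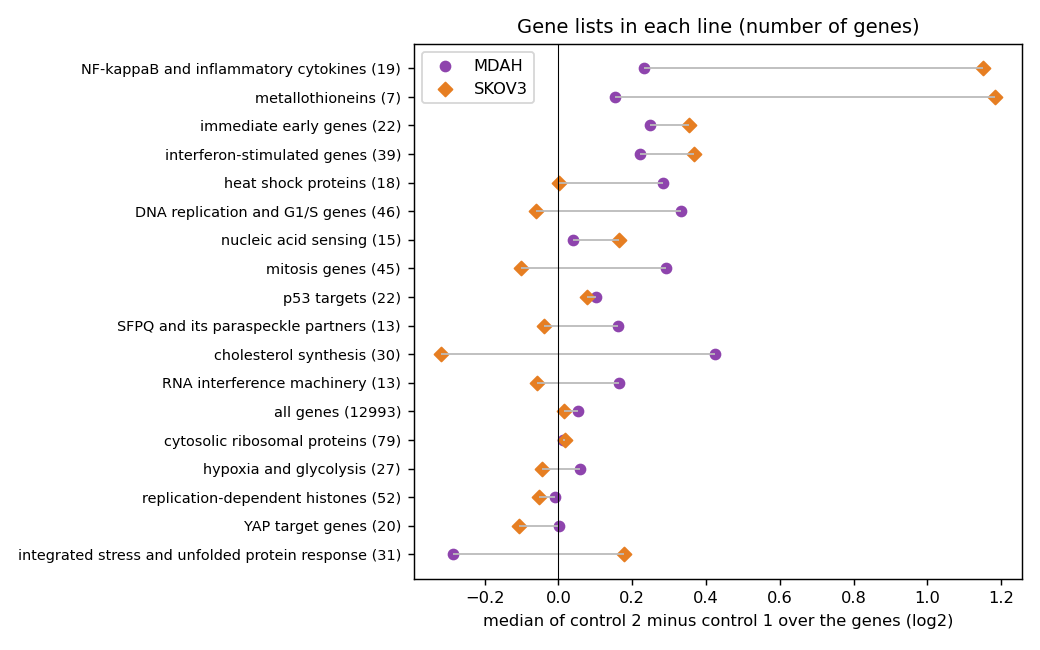
Median difference (control 2 minus control 1, log2) of each of the 17 gene lists and of all genes, with the number of genes above background on all 4 control arrays in brackets, circles for MDAH and diamonds for SKOV3. The lists of NF-kappaB genes, metallothioneins, immediate early genes, interferon-stimulated genes and p53 targets have both medians above those of all genes, and cholesterol synthesis has 0.43 and -0.32.

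The remaining lists had smaller medians or a sizeable one in 1 line only. The p53 target medians were 0.10 and 0.08, with PLK3, a stress kinase, at 0.52 and 0.29, the death receptor TNFRSF10B at 0.24 and 0.22 and the ribonucleotide reductase subunit RRM2B at -0.44 and -0.27. Heat shock proteins had 0.28 and 0.0025. Of these, the chaperones HSPA8 (0.67 and 0.24) and HSPA1A (0.51 and 0.33) were higher in both lines and CRYAB, a small heat shock protein, lower (-0.38 and -0.70). Hypoxia and glycolysis genes had 0.06 and -0.04, among which VEGFA, the angiogenic factor, was lower by 0.53 and 0.42, ANKRD37 by 0.41 and 0.34, and the glycolytic kinase PGK1 was higher by 0.28 and 0.21. The YAP targets had 0.0021 and -0.11, with the ectonucleotidase NT5E at 0.29 and 0.85 and the matrix protein CCN1 at 0.24 and 0.20. The 2 probes of NT5E spanned -0.06 to 0.29 in MDAH, so that its direction there depends on the probe. The 79 cytosolic ribosomal protein genes had 0.01 and 0.02, and RPS15, RPL36 and RPL8, the named ones, lay between -0.23 and 0.16.

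SFPQ, the gene silenced on the other arrays, was at 3.64 and 3.91 on control 1 and control 2 of MDAH and at 4.84 and 4.66 on those of SKOV3, so that the controls differed by 0.28 and -0.18 (mean difference 0.05 ± 0.17, limma adjusted p = 0.995). All 4 silenced arrays were below their line's controls, at 2.45 and 2.10 in MDAH and 3.01 and 2.48 in SKOV3, as their labels say. NONO, its dimer partner, differed by 0.04 and -0.09. The 13 genes of the list of SFPQ and its paraspeckle partners had medians of 0.16 and -0.04. NEAT1, the RNA on which paraspeckles are built, was higher by 0.24 and 0.15, with all 4 of its probes higher in both lines, and MALAT1, its nuclear neighbour, differed by -0.23 and -0.36 at the brightest of 8 probes, which spanned -0.23 to 0.35 in MDAH and -0.36 to -0.0052 in SKOV3. The cleavage factor NUDT21 differed by -0.16 and -0.27 at its brightest probe and by 0.25 and 0.15 at its other one, so that its direction depends on the probe.

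A few genes were above background in 1 control number alone. Of the 20495 named genes, 16 had both control 2 arrays and neither control 1 array well above background, and 14 had the reverse. No expected count was worked out for either direction, and the rule itself fixes the direction of these genes. ZFR2, a zinc finger RNA-binding protein, was at -3.72 on control 2 of MDAH and -0.65 on that of SKOV3, and its control 1 arrays were not well above background, which makes control 2 at least 4.84-fold higher (limma adjusted p = 0.981). All 4 silenced arrays were at -6.21 to -5.69 for this gene, near the control 1 values of -6.80 and -6.00. VNN1, a pantetheinase, HEPH, an iron oxidase, C1QTNF2 and the dicarboxylate transporter SLC13A3 were at least 2.04-fold, 1.96-fold, 1.93-fold and 1.77-fold higher. In the other direction ANKRD20A11P, RNF213-AS1, MRPL23-AS1, ADAMTSL1 and ANKRD34B were at least 2.998-fold, 2.85-fold, 2.46-fold, 2.16-fold and 2.02-fold higher in control 1. Each bound is the mean of the measured pair over the mean of the other pair, where an array of the other pair enters with the signal of its dimmest probe well above background, or with the gene's own signal if that was higher. The bounds pool the 2 lines and need not hold in each. On control 1 of MDAH, ANKRD20A11P, RNF213-AS1, MRPL23-AS1 and ADAMTSL1 were at -4.36, -4.11, -4.39 and -4.45, near the dimmest probes at -4.87. In SKOV3 they were at -1.27, -1.47, -1.81 and -2.05. HEPH was at -4.47 on control 2 of MDAH and -2.52 on that of SKOV3, and C1QTNF2 differed by 0.47 in SKOV3.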

How the data were processed

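Total RNA of 8 samples was labelled with Cy3 and hybridized to 1 slide of single-colour arrays. Per the file headers, the authors' scanner software (Feature Extraction 11.5.1.1; the submitters' processing notes name 10.7.3.1) subtracted background and gave an intensity per spot, without normalization between arrays. The authors also deposited a log2 table, which matched quantile-normalized, probe-median-centred values (r of 0.999997 or more on every array) and served as an alternative. Deposited median pixel intensities were used for the normexp alternative (offset 50).

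Control and outlier spots were left out, spots of a probe averaged, log2 taken and the 75th percentile of the array subtracted. Of 50599 probes, 28162 (55.7%) were named through RefSeq accessions, giving 20495 genes. The brightest probe stood for a gene. The others were not used in tests. limma 3.58.1 (R 4.3.3) was fitted to all 8 arrays, with a mean for each line and silencing state, a control number term and an shRNA term, on genes well above background on at least 2 control arrays (2.8 prior degrees of freedom), with Benjamini-Hochberg adjusted p under 0.05. The methods name no test for the arrays. The cell line was the block, since both controls of a line come from that line. The fit was checked on simulated data. Values per line, lists and the 1.5-fold counts used genes well above background on all 4 control arrays. Precision is limited by the number of arrays, and no counting depth applies to array intensities.

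Genes were named by rule: SFPQ and NONO, the 12 highest and 12 lowest of 1 sign in both lines by the smaller difference, up to 3 of each of the 17 lists ranked alike, and up to 5 in each direction above background in 1 control number alone. Others were named after their values were seen: ZNF827, KRT8, NBEAP1 and CRYBB2P1 at the limits, and list members and marker genes beyond these. The comparison and the lists were chosen with earlier results of these data known. Lists were written from general knowledge. Results of some genes are not reported here. No coordinates of probes are given. Promoters were taken from RefSeq (GRCh38.p14).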

Additional observations from a re-analysis of the deposited data

Results flagged for a closer look

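Of the 17 gene lists, 8 had a median difference between control 2 and control 1 of opposite sign in MDAH and SKOV3, a difference between the lines that was not tested. The medians in MDAH and SKOV3 were 0.43 and -0.32 for cholesterol synthesis, 0.33 and -0.06 for DNA replication and G1/S genes, 0.29 and -0.10 for mitosis genes, and -0.29 and 0.18 for the integrated stress and unfolded protein response. For the other four they were nearer to 0, at 0.16 and -0.06 for the RNA interference machinery, 0.057 and -0.044 for hypoxia and glycolysis, 0.0021 and -0.11 for YAP target genes and 0.16 and -0.04 for SFPQ and its paraspeckle partners. Each median rests on 1 pair of arrays in a line. Across the other scalings, filters and probe choices, the medians of hypoxia and glycolysis ranged from -0.01 to 0.09 in MDAH and those of YAP target genes from -0.07 to 0.03, so that these 2 had no settled sign there, whereas the other 6 kept both signs.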

How the results depend on the processing

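The count of genes called was 0 under all 12 alternatives, with between 23 (no replicate block) and 788 (control arrays alone) genes at an unadjusted p under 0.05 and a lowest adjusted p of 0.0506, reached with genes well above background on all 4 control arrays. The fit with no replicate block, which leaves out the cell line, thus also gave 0 genes. The count of genes past 1.5-fold the same way, 49, became 19 with normexp background correction, 137 with genes above background on at least 2 control arrays (added after the data were seen) and 406 with no filter on dim probes, and 438 to 687 when 1 line was left out, since a single line was then asked. The correlation of the lines, 0.142, was 0.0811 and 0.0462 with those 2 looser filters. The cause was not tested. The medians of the interferon-stimulated genes ranged from 0.15 to 0.25 in MDAH and from 0.31 to 0.46 in SKOV3 over the settings, and those of the NF-kappaB genes from 0.07 to 0.26 and 0.91 to 1.16. Medians near 0 changed sign with the setting for heat shock proteins in SKOV3 (-0.02 to 0.01) and for histones (-0.11 to 0.02) and ribosomal proteins (-0.0091 to 0.043) in MDAH. Of 998 values of named genes, 7 changed sign, all at SFPQ, NONO and MALAT1: SFPQ was -0.0099 with quantile normalization, -0.0073 with the deposited table, -0.020 with normexp and -0.18 to 0.28 with 1 line left out, NONO was 0.025 with the mean of the probes and -0.086 to 0.038 with 1 line left out, and MALAT1, -0.30 at its brightest probe, was 0.0095 with the mean of the probes. Apart from SFPQ and NONO, the genes of this count were chosen for 1 sign in both lines or for their direction between the controls. Leaving out a line cannot reverse a gene chosen for 1 sign in both. The unchanged signs are thus largely fixed by the choice of genes. Fits of the 4 control arrays, of no block and of an intensity trend cannot alter the counts and medians of single lines and were not run for them.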
